A study of Mus musculus with 3 samples.

Results

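The neurotrophins are secreted growth factors of neurons, and 8 mouse genes of this system were followed in RNA from the medial prefrontal cortex, a frontal region of the cerebral cortex. The genes were the ligand genes Bdnf, Ntf3 and Ntf5, the receptor genes Ntrk2, Ntrk3 and Ngfr, and the sorting receptor genes Sort1 and Sorcs2. They were taken by name from a table of 46073 genes, and all 8 had a row. The tissue came from C57BL/6 mice aged 3 months that are labelled as naïve, with no transgene, deletion or treatment named. The series holds 3 samples, 1 each of RNA, DNA enriched for methylated cytosine, and input DNA. Only the RNA table was used here, so there is 1 group and no contrast between conditions.

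In this system each ligand is made as a proneurotrophin precursor and cut to a mature form. Mature ligands act through Trk receptor tyrosine kinases: BDNF and neurotrophin-4 through TrkB, and neurotrophin-3 mainly through TrkC. All of them also bind p75, a receptor of the tumour necrosis factor receptor family, and the precursors bind p75 together with sortilin or a related protein. In the cortex BDNF and TrkB are best known for supporting synaptic plasticity and the growth of dendrites and spines.

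Expression was given as FPKM, fragment counts scaled by transcript length and by the number of mapped fragments, so that genes can be ranked within the sample. The table has 2 value columns that were equal in all 46073 rows, and they were counted as 1 sample. The design text states 3 replicates for RNA, but 1 value per gene leaves no spread between animals. No value below therefore has an error, no ratio has a replicate check and no test was possible. The sources used here do not state the number of reads, so the depth behind each value is unknown. The detection limit was set at 1 FPKM.

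The plot of the neurotrophin families shows TrkB and TrkC RNA above the RNA of the 3 ligands, and p75 RNA under the detection limit. Of the 8 members 6 were detected. Among all rows 31.5% were detected and among the 20635 rows of protein-coding genes 58.6% were, and the 6 of 8 are not read as particular to these genes. The median of the members was 6.13 FPKM, against 2.59 FPKM over protein-coding rows and 9.86 FPKM over the detected ones among them. The order from high to low was Sort1, Ntrk2, Ntrk3, Sorcs2, Bdnf, Ntf3, Ngfr and Ntf5. With no spread, none of the neighbours in that order can be said to differ beyond error. Of the 28 pairs of members 26 were at least 2-fold apart, and the exceptions were Sort1 over Ntrk2 at 1.18-fold and Sorcs2 over Bdnf at 1.14-fold. The share over pairs of all protein-coding genes was not computed, so the count of 26 is not read as particular to the members.

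**Figure D1:**
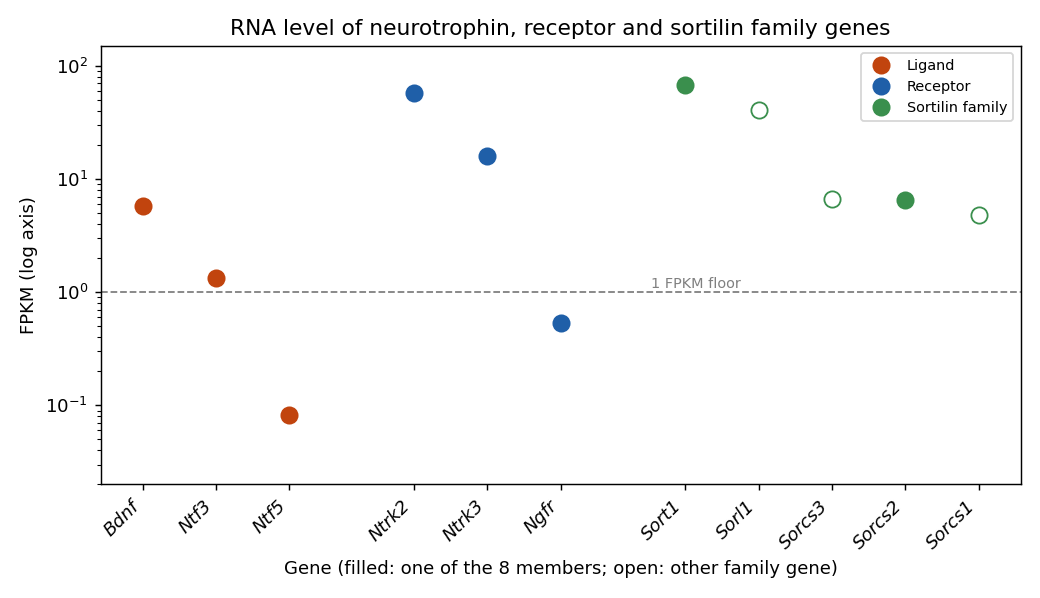
FPKM on a log axis for 11 genes of the neurotrophin ligand, receptor and sortilin families, with 1 point per gene from 1 sample; filled points are the 8 members and the dashed line marks 1 FPKM. Ntrk2 at 57.8 FPKM and Sort1 at 68.4 FPKM stand highest, and Ngfr and Ntf5 lie under the line.

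Bdnf is unusual among the members in having many alternative first exons, each with its own start, most of them spliced to 1 shared coding exon. RefSeq lists 12 curated mRNAs for it, and the promoter table used here holds 7 Bdnf starts spread over 48221 bases. The single Bdnf value does not separate these starts, and whether it covers all of them is not known. The 60 bases just before each start are printed because that value cannot be assigned to any of them. They are given 5′ to 3′ in the direction of the gene, on GRCm38.p6 (the assembly also called mm10) from RefSeq. Each CpG, the main dinucleotide at which DNA is methylated, is in capitals.
Bdnf start 1 (chr2:109674640-109674699, plus strand): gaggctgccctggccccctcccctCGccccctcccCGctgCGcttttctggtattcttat
Bdnf start 2 (chr2:109676972-109677031, plus strand): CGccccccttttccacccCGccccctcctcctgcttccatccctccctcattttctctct
Bdnf start 3 (chr2:109692376-109692435, plus strand): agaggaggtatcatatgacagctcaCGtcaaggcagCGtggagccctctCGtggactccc
Bdnf start 4 (chr2:109692967-109693026, plus strand): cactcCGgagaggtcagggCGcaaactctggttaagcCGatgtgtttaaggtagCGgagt
Bdnf start 5 (chr2:109694349-109694408, plus strand): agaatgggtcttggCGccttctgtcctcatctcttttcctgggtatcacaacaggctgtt
Bdnf start 6 (chr2:109709323-109709382, plus strand): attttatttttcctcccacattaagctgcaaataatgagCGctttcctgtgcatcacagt
Bdnf start 7 (chr2:109722861-109722920, plus strand): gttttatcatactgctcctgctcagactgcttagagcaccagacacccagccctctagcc
The number of CpGs in these 60 bases ran from 4 before start 4 to 0 before start 7. Start 3 carries TCACGTCA from 38 to 31 bases before the start, the variant cyclic AMP response element known from the activity-regulated Bdnf promoter. Of 32851 promoter windows of 300 bases in the table (250 before and 50 after a start) 0.441% hold TCACGTCA on either strand, and none of the other 10 windows of the members does. The FPKM table gives no value per start, so use of this element in the tissue was not measured.

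The other members with sequence in the table were Ntf3 with 2 starts, Ntrk2 and Ngfr. Their upstream bases are shown because Ntrk2 and Ngfr lie at opposite ends of receptor expression. The Ntrk2 bases and those before Ntf3 start 2 lie inside the RefSeq span of their gene, and those before Ntf3 start 1 partly do.
Ntf3 start 1 (chr6:126166745-126166804, minus strand): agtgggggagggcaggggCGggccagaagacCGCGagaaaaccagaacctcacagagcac
Ntf3 start 2 (chr6:126164961-126165020, minus strand): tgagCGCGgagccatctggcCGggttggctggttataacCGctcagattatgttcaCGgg
Ntrk2 start 1 (chr13:58806509-58806568, plus strand): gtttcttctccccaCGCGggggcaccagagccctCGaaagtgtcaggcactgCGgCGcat
Ngfr start 1 (chr11:95587699-95587758, minus strand): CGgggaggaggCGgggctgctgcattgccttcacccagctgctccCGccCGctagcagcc
In their full windows Ntrk2 and Ngfr had the same number of CpGs, 23, which is more than in 78.5% of all windows, although the RNA level of Ntrk2 was 109-fold that of Ngfr (38.4-fold on FPKM + 1). The windows differed in base composition, at 61.3% G and C for Ntrk2 and 71.7% for Ngfr. The observed over expected CpG ratio was 0.835 for Ntrk2 and 0.607 for Ngfr, against a median of 0.384 over all windows. The GC box GGGCGG, searched on both strands, occurred 4 times in the Ngfr window and 1 time in the Ntrk2 window, and 35.7% of all windows hold it. All 4 Ngfr matches lie before the start, and the Ntrk2 match lies after it. The E box CACGTG was found in the first Ntf3 window and in 7.15% of all windows. The full cyclic AMP response element TGACGTCA (1.79% of windows) and the TATA sequence TATAAA (13.6%) were in none of the 11 windows of the members. No match of 1 motif in these windows overlapped a match of another.

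**Figure D2:**
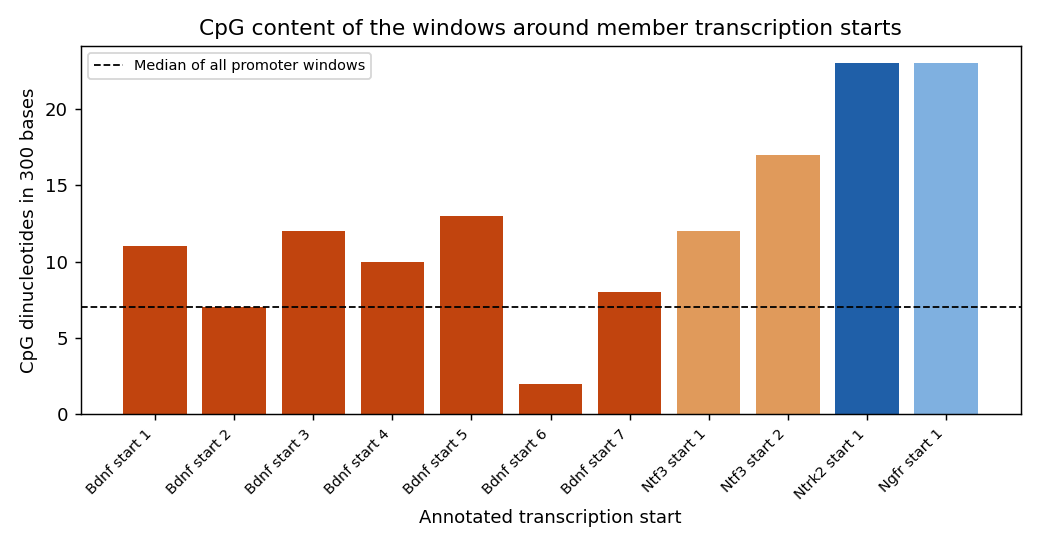
CpG dinucleotides in the 300-base window around each of the 11 annotated starts of Bdnf, Ntf3, Ntrk2 and Ngfr, as bars; the dashed line is the median of all 32851 windows, 7. Bdnf start 6 has 2 CpGs and Ntrk2 and Ngfr have 23 each.

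The 7 Bdnf windows had between 2 and 13 CpGs with a median of 10, and 1 of them was under the median of all windows. Across protein-coding genes, RNA levels were low where even the window richest in CpG had no more than 13: the median over 7702 such genes was 0.0386 FPKM, and 26.8% were detected. Bdnf, at 5.73 FPKM, was above 86.2% of them. Of 5414 genes with a window of 23 or more CpGs 89.4% were detected, with a median of 9.62 FPKM. Ntrk2 was above 91.7% of that class and Ngfr above 7.46%. The limits of 13 and 23 were taken from the members after their windows had been counted, and these shares are a description of genes in 1 sample. The methylation of these CpGs was not analysed here.

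Bdnf was the highest of the 3 ligand genes. Bdnf (ENSMUSG00000048482, chromosome 2, 109674700 to 109727043) encodes brain-derived neurotrophic factor, the main TrkB ligand of the cortex. It was at 5.73 FPKM, above 61.1% of protein-coding genes and 0.581 times the median of the detected ones. Its level was 4.33-fold that of Ntf3.

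The other two ligand genes were near or under the detection limit. Ntf3 (ENSMUSG00000049107, chromosome 6, 126101412 to 126166772), the neurotrophin-3 gene, was at 1.32 FPKM and just passed the detection limit, above 43.6% of protein-coding genes. Ntf5 (ENSMUSG00000074121, chromosome 7, 45413695 to 45417179), which encodes neurotrophin-4, was at 0.0824 FPKM, above 27.4% of protein-coding genes. Its level was 69.5-fold below that of Bdnf, which shares the receptor TrkB with it, and 31.9-fold below on FPKM + 0.1 and 6.22-fold on FPKM + 1. Of the summed FPKM of the 3 ligand genes, 7.13, Bdnf made up 80.3%, Ntf3 18.6% and Ntf5 1.16%. A low value in bulk tissue cannot tell few expressing cells from little RNA per cell.

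The receptor genes spanned a wider range than the ligand genes. Ntrk2 (ENSMUSG00000055254, chromosome 13, 58806472 to 59133970), the TrkB gene, was at 57.8 FPKM, above 94.7% of protein-coding genes. Its level was 5.86 times the median of detected protein-coding genes. Ntrk2 makes a full-length kinase and truncated forms without the kinase domain, the latter known from astrocytes, and 3 curated mRNAs are listed in RefSeq. The gene value does not separate these forms. Ntrk3 (ENSMUSG00000059146, chromosome 7, 78179986 to 78581034), the TrkC gene, which also has forms without a working kinase, was at 15.8 FPKM and above 79.1% of protein-coding genes.

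Ngfr (ENSMUSG00000000120, chromosome 11, 95568818 to 95587698), the p75 gene, was at 0.529 FPKM, under the detection limit but above 37.0% of protein-coding genes. This call depends on the scale: with values rescaled over protein-coding nuclear rows alone Ngfr was at 1.65, over the limit, and it also passed a limit of 0.1 FPKM. Ngfr is known in the forebrain from cholinergic neurons below the cortex, and the list of striatal and basal forebrain markers was also low here, with a median of 0.179 FPKM and Chat, the acetylcholine-synthesising enzyme, at 0.129 FPKM. The part of such cells in the value of Ngfr was not tested. Ntrk2 made up 77.9% of the summed FPKM of the 3 receptor genes, 74.1, Ntrk3 21.3% and Ngfr 0.714%.

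**Figure D3:**
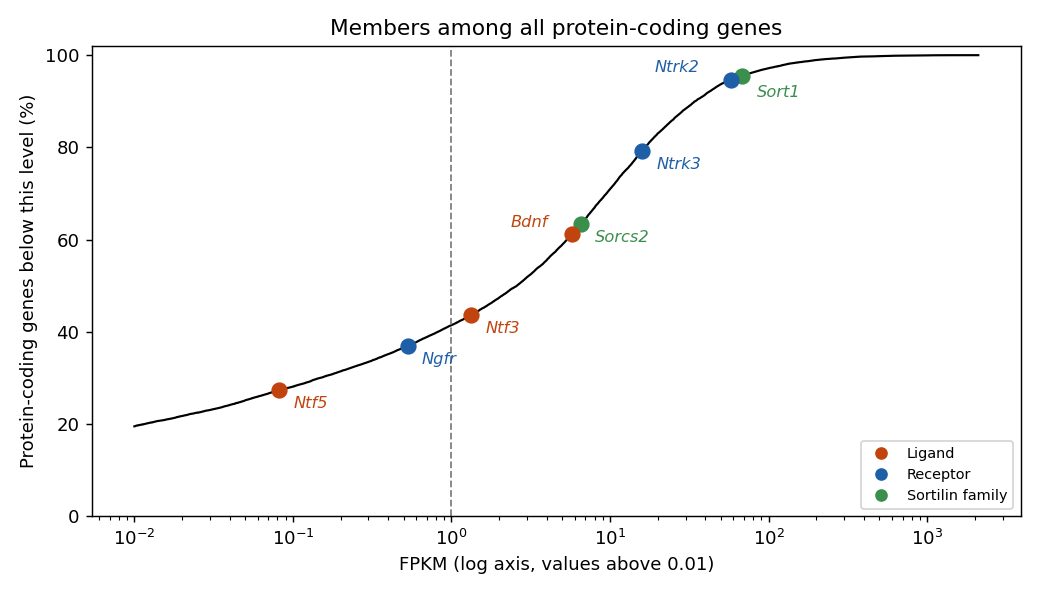
Percentage of 20635 protein-coding rows below each FPKM (curve, log axis from 0.01 FPKM) with the 8 members as points coloured by role; the dashed line marks 1 FPKM. Sort1 and Ntrk2 lie at 95.6% and 94.7%, Bdnf and Sorcs2 at 61.1% and 63.4%, and Ntf5 at 27.4%.

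Set against their own ligands, the Trk receptor genes were higher. Ntrk2 was 10.1-fold above Bdnf and 701-fold above Ntf5, and Ntrk3 was 11.95-fold above Ntf3. The ratio to Ntf5, a gene under the detection limit, was 317 on FPKM + 0.1 and 54.3 on FPKM + 1, and that of Ntrk3 to Ntf3 was 7.24 on FPKM + 1. The order was the other way for Ngfr, which was 10.8-fold below Bdnf and 2.50-fold below Ntf3 but 6.42-fold above Ntf5. The summed FPKM of the 3 receptor genes was 10.4 times that of the 3 ligand genes. These are ratios of RNA in the same tissue and give no amount of protein.

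The sortilin family, whose members are sorting receptors with a shared Vps10 domain, was detected in full, at 5 of 5 genes. Over all protein-coding rows 58.6% were detected. Sort1 (ENSMUSG00000068747, chromosome 3, 108283974 to 108361519), which encodes sortilin, the partner of p75 in binding proneurotrophins and a sorting receptor for BDNF, was the highest member at 68.4 FPKM. It was above 95.6% of protein-coding genes, 11.9-fold above Bdnf and 129-fold above Ngfr (45.3-fold on FPKM + 1). Sorl1, which encodes the sorting receptor of the amyloid precursor protein, was at 40.7 FPKM, 1.68-fold below Sort1.

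Sorcs2 (ENSMUSG00000029093, chromosome 5, 36017180 to 36398197) encodes another partner of p75 and of TrkB. It was at 6.53 FPKM, 10.5-fold below Sort1 and 12.3-fold above Ngfr (4.92-fold on FPKM + 1). Its closest relatives were at nearly the same level, Sorcs3 at 6.72 FPKM and Sorcs1 at 4.85 FPKM, so that the 3 Sorcs genes lay within 1.39-fold. Sort1 made up 53.8% and Sorcs2 5.13% of the summed FPKM of the family. RefSeq places 7 other genes inside the span of Sorcs2, 5 of them lncRNA genes that matched no row by symbol, and the sources used here do not say how strand was handled. The 2 with a row, Psapl1 and Mir7689, were listed at 0. Ntrk2 and Ntrk3 each span 1 lncRNA gene without a matched row, and the other five members overlap none.

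Other trophic factor families of the same tissue were set beside the neurotrophins. The receptor median exceeded the ligand median in 4 of 5 families, at 15.8 against 1.32 FPKM for the 3 neurotrophin receptor and 3 ligand genes, a ratio of 11.95. It was 103 in the GDNF family (14.2 against 0.138 FPKM), 23.6 in the CNTF and LIF family (10.05 against 0.426 FPKM) and 1.14 for neuregulins and EGF ligands with ErbB receptors (1.68 against 1.48 FPKM). All 4 GDNF ligand genes and 5 of 6 CNTF and LIF ligand genes were under the detection limit, so their ratios rest on low values. In a mixed group of other factors the order was the opposite, at 3.26 FPKM for receptors and 20.5 FPKM for ligands. By geometric means of FPKM + 1, less 1, the ratios were 6.68 for the neurotrophins, 43.2 for the GDNF family, 8.21 for CNTF and LIF and 1.30 for neuregulins and EGF ligands. By summed FPKM the receptors were higher in 3 of 5 families, since the neuregulin and EGF family had a receptor over ligand sum of 0.430, and by the highest gene of each list in 3 of 5 too, with 0.682 for that family. A higher receptor than ligand level, by median, sum or highest gene, was thus not particular to the neurotrophins.

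Single genes of these families place Bdnf and Ntrk2 among them. Bdnf was above Gdnf, the glial cell line-derived factor gene, at 0.0264 FPKM, by 46.1-fold on FPKM + 0.1 and 6.55-fold on FPKM + 1. None of the 4 GDNF ligand genes was detected, against 58.6% of protein-coding rows. Pspn at 0.400 FPKM was the highest of them. Nrg3, a neuregulin gene, at 8.83 FPKM was above Bdnf, and Ptn, the pleiotrophin gene, was highest at 133 FPKM. Ntrk2 was above every receptor gene on these lists. The nearest was Ncam1, the neural adhesion molecule that can act as a GDNF coreceptor, at 33.9 FPKM, followed by Gfra4 at 33.7 and Cntfr at 27.9 FPKM. Ntrk2 was 9.59-fold above Erbb4, the neuregulin receptor gene, at 6.03 FPKM, and 155-fold above Ret, the GDNF receptor kinase gene, at 0.373 FPKM (42.8-fold on FPKM + 1).

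**Figure D4:**
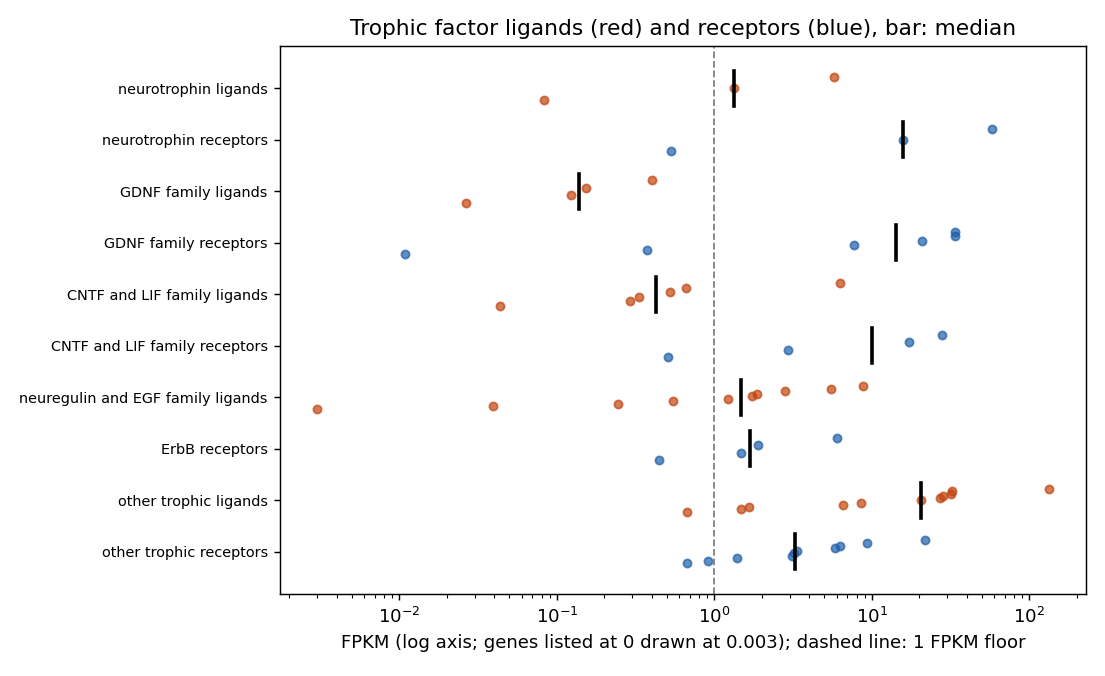
FPKM of each gene (points, log axis, genes listed at 0 drawn at the left edge) in the ligand lists (red) and receptor lists (blue) of 5 trophic factor families, with the median of each list as a bar. The neurotrophin receptor median of 15.8 FPKM lies right of the ligand median of 1.32 FPKM, and the mixed group at the bottom has the opposite order.

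The genes that cut and release proneurotrophins ranged from among the highest in the table to values of 0, with 12 of 18 detected and a median of 4.67 FPKM. Their detected share, 66.7%, was near the 58.6% of protein-coding rows. Cpe, carboxypeptidase E, which also sorts BDNF into regulated vesicles, was at 775 FPKM. Among the convertases Pcsk2 was at 81.1 FPKM, 12.2-fold above Pcsk1 at 6.65 FPKM, and Furin was at 5.00 FPKM. Outside the cell, plasmin cuts proBDNF after tissue plasminogen activator has made it from plasminogen. The activator gene Plat was at 7.33 FPKM and the plasminogen gene Plg at 0.0187 FPKM, lower by 62.6-fold on FPKM + 0.1 and 8.18-fold on FPKM + 1. Serpini1, neuroserpin, which inhibits the activator, was at 86.2 FPKM, 11.8-fold above Plat. The metalloproteinase genes Mmp3 and Mmp7 were listed at 0.

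Genes that carry the Trk signal inside the cell were nearly all detected, with 20 of 22 adaptors and effectors (median 9.78 FPKM) and 23 of 23 genes of the downstream kinase relay (median 16.3 FPKM). Of protein-coding rows 58.6% were detected, and these lists were chosen with earlier results of these data known. The scaffold Sqstm1, also an autophagy receptor, was highest among the adaptors at 334 FPKM, followed by Grb2, the link to Ras, at 75.6 FPKM and Kidins220, a Trk-binding membrane scaffold, at 32.3 FPKM. The neuronal Shc3 at 13.4 FPKM was 4.16-fold above Shc1, Frs3 was 1.53-fold above Frs2, and Plcg1, the phospholipase recruited by Trk, was 28.5-fold above Plcg2 (12.7-fold on FPKM + 1). Sh2b2 at 0.896 and Plcg2 at 0.736 FPKM were the adaptors under the limit.

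In the relay the ERK kinase gene Mapk3 at 105 FPKM and its activator Map2k1 at 129 FPKM were among the highest. Pik3cb at 4.58 and Rps6ka5, a CREB kinase gene, at 3.24 FPKM were lowest.

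All 21 genes of the p75 partner list passed the limit (median 27.0 FPKM), against 58.6% of protein-coding rows. Ngfr itself was under the limit at 0.529 FPKM and over it, at 1.65, when rescaled over protein-coding nuclear rows. Ywhae, a 14-3-3 protein gene, at 358 FPKM, Mapk10, the neuronal JNK gene, at 213 FPKM and Bex3, a p75-binding protein gene, at 155 FPKM were highest. Ripk2 at 1.39 and Nradd, a p75-related gene, at 1.22 FPKM were lowest. Most of these genes act in other pathways as well, so their levels are no measure of p75 signalling.

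Of 19 Trk modulators 17 were detected (median 10.5 FPKM), and of 16 genes of TrkB endosomes and transport 15 were (median 44.8 FPKM). Over protein-coding rows the detected share was 58.6%. Nedd4, a ubiquitin ligase, at 77.6 FPKM, the receptor phosphatase gene Ptprs at 47.0 FPKM and the synaptic adhesion gene Slitrk1 at 19.8 FPKM led the modulators, with Lrig3 at 0.394 and Slitrk6 at 0.0972 FPKM lowest. Kif1a, a motor of dense core vesicles, at 146 FPKM, Rab7 of late endosomes at 136 FPKM and Sh3gl2, endophilin A1, at 121 FPKM led the transport list, with Ehd4 at 4.05 and Sytl1 at 0.438 FPKM lowest.

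Among 24 transcription factors, cofactors and kinases linked to Bdnf transcription 22 passed the limit (median 10.2 FPKM). Mef2c at 101, Usf2 at 70.6 and Tcf4 at 61.2 FPKM were highest. Rest, a repressor of neuronal genes that is low in mature neurons, at 0.511 FPKM and Nfatc4 at 0.225 FPKM were lowest. All 16 genes on the list of those that BDNF is known to induce in neurons passed the limit (median 14.5 FPKM). Of protein-coding rows 58.6% passed it. The neuropeptide gene Npy at 133 FPKM, the secreted peptide gene Vgf at 60.2 FPKM and the early response gene Egr1 at 49.6 FPKM were highest, and Fosb at 2.04 and Egr2 at 1.31 FPKM lowest. These genes respond to many other signals too.

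**Figure D5:**
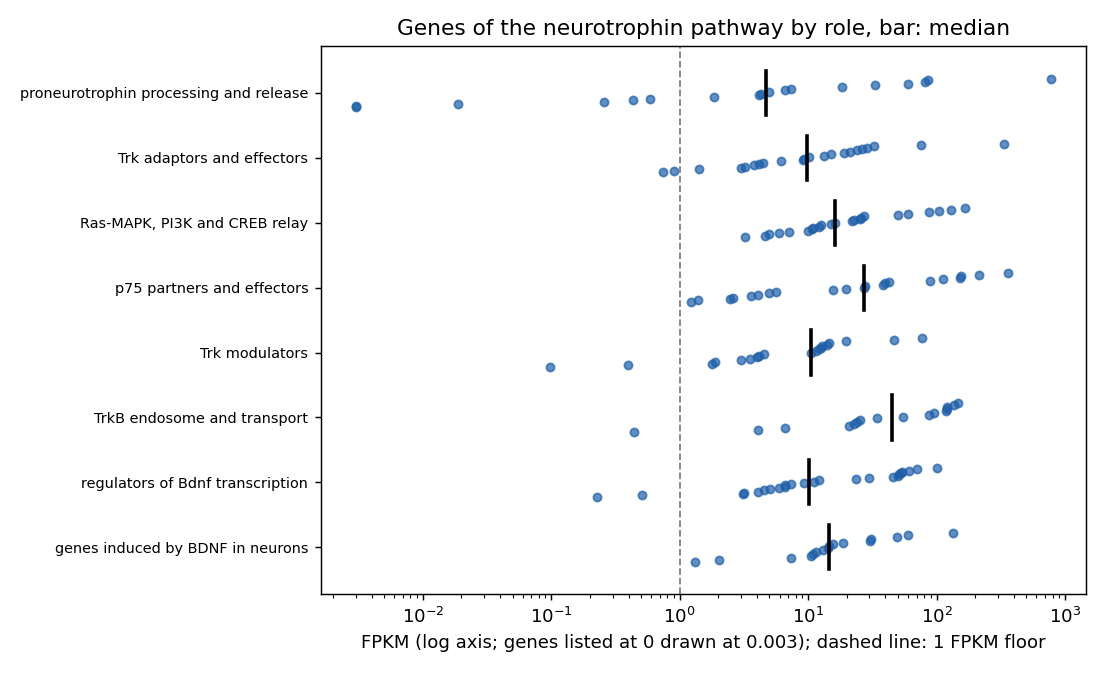
FPKM of each gene (points, log axis, genes listed at 0 drawn at the left edge) in 8 lists of the neurotrophin pathway, with the median of each list as a bar and 1 FPKM as a dashed line. The transport list has the highest median, 44.8 FPKM, and the processing list the lowest, 4.67 FPKM.

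Markers of the labelled tissue were present. The excitatory neuron list was detected at 7 of 7 genes with a median of 45.2 FPKM, led by Nrgn at 874, Camk2a at 701 and Slc17a7 at 353 FPKM. The inhibitory neuron (7 of 7, median 21.6 FPKM), astrocyte (7 of 7, 58.7 FPKM), oligodendrocyte (7 of 7, 30.8 FPKM) and microglia lists (6 of 6, 13.8 FPKM) were present too, so the members' values are averages over many cell types. Vascular and meningeal markers had a median of 4.66 FPKM (8 of 8). Choroid plexus markers, from outside the cortex, were detected at 5 of 5 genes with a median of 8.57 FPKM, from 3.68 FPKM to 566 FPKM for Ttr. Of the striatal and basal forebrain list 3 of 9 were detected, with values from 0.0286 to 11.96 FPKM. Over protein-coding rows 58.6% were detected. The part of tissue outside the cortex in the members' values was not tested.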

How the data were processed

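RNA from the medial prefrontal cortex of C57BL/6 mice was examined as 1 sample. The values the authors deposited are FPKM per Ensembl gene. The tools named per the submitters' processing notes are CASAVA 1.8.2, TopHat and Cufflinks, with the build mm10. Other versions, the annotation, the use of strand and how replicates were combined: not given in the sources used here. Errors in transcript length enter every ratio between genes.

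Symbols were matched by Ensembl identifier for 45139 rows, with 934 left without one. Gene class, coordinates and promoter windows came from RefSeq for GRCm38.p6, matched by symbol. Of the 8 members 4 had promoter windows. Ratios were taken on FPKM without a pseudocount, and list medians over all genes of a list. The members, lists and pairs were chosen with earlier results of these data known. Named genes were all members, their families, the fixed pairs, and the 3 highest and 2 lowest genes of each other list. Chat was added after its value was seen, and some genes that the rule takes are left out of the text. Other floors, pseudocounts, scales and summaries were computed. The functions were tested on simulated data. The computations ran in Python 3.11.15 with pandas 2.3.3 and numpy 2.4.6, and the plots in matplotlib 3.10.9.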

Additional observations from a re-analysis of the deposited data

How the results depend on the processing

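The order of the 8 members holds on FPKM, FPKM + 0.1, FPKM + 1 and both other scales, since each keeps the order of values. Of the 8 members 7 passed a floor of 0.1 FPKM and 5 a floor of 5 FPKM. Near these floors, 28.0% of protein-coding rows lay below Slitrk6 at 0.0972 FPKM and 58.9% below Furin at 5.00 FPKM. Scaling to TPM multiplied every value by 1.27 and left 6 detected. Scaling to protein-coding nuclear rows multiplied values by 3.12 and put Ngfr at 1.65, over the limit, so that 7 were detected. The share of all protein-coding rows over the limit was not computed on these scales, so neither count is read as particular to the members. With FPKM + 1, 24 member pairs in place of 26 were at least 2-fold apart, again without a share over other gene pairs. Ratios to low genes shrank: of 27 fixed pairs 12 moved by over 1.5 times with FPKM + 1 and 5 with FPKM + 0.1. Across the trophic factor families 39 of 61 genes were detected at 1 FPKM, 55 at 0.1 FPKM and 25 at 5 FPKM. At 1 FPKM the detected share of protein-coding rows was 58.6%, and the shares lying below levels near 0.1 and 5 FPKM are given above. The receptor summary exceeded the ligand summary in 4 of 5 families by the median and the geometric mean, and in 3 of 5 by the sum and by the highest gene, both chosen after seeing the data. Of 18 list medians 6 moved by over 1.5 times by the geometric mean: neurotrophin receptors from 15.8 to 10.5 FPKM, GDNF receptors from 14.2 to 7.26, CNTF and LIF ligands from 0.426 to 0.789 and receptors from 10.05 to 6.48, other trophic ligands from 20.5 to 12.2, and the processing list from 4.67 to 7.03. The planned correction for transcript length was not run, because transcript lengths were not used here. No paired analysis was possible because there is 1 RNA sample. With the depth unknown, values under the floor carry no counting limit.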

Other observations

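The genes lying beside Sort1 and those beside Ntf5 differed widely in level from each other. Within 5000 bases of Sort1, the proteasome subunit gene Psma5 was at 30.4 FPKM and Mybphl, a myosin-binding protein gene, at 0.0299 FPKM, against 68.4 FPKM for Sort1. Around Ntf5, which was at 0.0824 FPKM, the luteinizing hormone subunit gene Lhb, 429 bases away, was at 0.121 FPKM and the potassium channel gene Kcna7 at 0.00194 FPKM, while Ruvbl2, a chromatin remodelling ATPase gene 4717 bases away, was at 9.53 FPKM. The genes were taken by distance alone, and Ntf5, Lhb and Kcna7 were all under the detection limit.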
